A study of Mus musculus with 24 samples.

Results

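The acute phase genes described here are 37 listed genes for plasma proteins that the liver makes more of, or less of, during inflammation, together with the receptors and signalling genes that pass the interleukin-6, interleukin-1 and endotoxin signals to the hepatocyte. A listed gene was measured where a probe set of the array was paired with its symbol alone, and 33 of the 37 were, among 18820 genes in all. Where a gene had several such probe sets, the brightest on average across the 24 arrays was taken. The 33 genes were 7 receptors and signalling genes, 5 serum amyloids and pentraxins, 7 carriers and scavengers, 3 fibrinogen chains, 3 protease inhibitors, 3 alpha-macroglobulins, 1 complement gene and 4 negative acute phase genes. Saa1 and C4b were represented only by probe sets shared with Saa2 and with C4a. Serpina3m and C3 had no probe set with a symbol of their own and were not analysed here.

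RNA from 24 mouse livers was hybridised to a whole-transcript Affymetrix array, with 1 array per liver and 8 groups of 3 mice. All values are log2 expression levels, so that a difference of 1 is a 2-fold change. The study deleted NEMO, the regulatory subunit of the kinase complex that activates NF-kB, and the kinases JNK1 and JNK2, and asked how their loss bears on liver injury. Per the labels, hepatocyte deletion came from an Alb-Cre transgene, which the albumin promoter drives, and the mice were on a C57BL/6 background. Untreated mice aged 52 weeks were either labelled control or NEMO/JNKΔhepa, which lack NEMO, JNK1 and JNK2. Mice labelled control or JNKΔhepa were studied 40 days after diethylnitrosamine (DEN), a hepatocyte-damaging carcinogen. Other mice labelled control or JNKΔhepa were studied 28 days after bile duct ligation (BDL), which blocks bile flow. Untreated mice aged 8 weeks were NEMOΔhepa or NEMO/JNK1Δhepa. The labels give JNKΔhepa both as a hepatocyte deletion of both kinases and as floxed Jnk1 together with Jnk2-/-, and they give no age for the treated mice. Every liver carries its own mouse identifier, so the replicates of a group are different animals.

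The acute phase response is the change in liver protein output that follows infection or tissue damage. Interleukin-6 binds its receptor and the shared gp130 chain on hepatocytes, which activates the transcription factor STAT3. STAT3 raises fibrinogen and pentraxin genes as well as its own inhibitor Socs3. Interleukin-1 acts through NF-kB and C/EBP factors and, together with interleukin-6, raises the serum amyloid A genes, while albumin, transferrin and transthyretin classically decline. In the mouse, serum amyloids and serum amyloid P (Apcs) are the strong responders, and C-reactive protein (Crp) responds weakly.

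Promoters are shown for Saa2 and Saa3, whose group means had the widest ranges, for Saa1, which shares a probe set with Saa2, and for Apcs, Fgb and Socs3, which held words that STAT3 recognises. Each line gives the 250 bases before a transcription start listed for the gene, 5′ to 3′ on the gene's strand, from RefSeq on GRCm38.p6. Capitals mark a match on either strand to the STAT palindrome TTCNNNGAA, to the interleukin-6 element CTGGGAA, or to the C/EBP word TTGCNNAA. Saa1 and Saa2 share a probe set, and their windows were 94.8% identical (238 of 251 aligned columns), against 52.4% for Saa2 and Saa3.
Saa1: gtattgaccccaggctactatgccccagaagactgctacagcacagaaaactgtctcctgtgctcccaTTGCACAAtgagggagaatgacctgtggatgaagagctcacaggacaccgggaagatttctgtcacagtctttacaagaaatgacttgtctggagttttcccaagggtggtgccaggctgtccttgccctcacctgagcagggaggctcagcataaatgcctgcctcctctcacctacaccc
Saa2: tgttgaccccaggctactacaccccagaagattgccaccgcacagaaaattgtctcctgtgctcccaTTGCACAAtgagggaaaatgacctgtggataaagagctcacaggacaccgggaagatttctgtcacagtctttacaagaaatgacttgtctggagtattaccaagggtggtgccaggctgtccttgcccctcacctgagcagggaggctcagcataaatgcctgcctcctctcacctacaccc
Saa3: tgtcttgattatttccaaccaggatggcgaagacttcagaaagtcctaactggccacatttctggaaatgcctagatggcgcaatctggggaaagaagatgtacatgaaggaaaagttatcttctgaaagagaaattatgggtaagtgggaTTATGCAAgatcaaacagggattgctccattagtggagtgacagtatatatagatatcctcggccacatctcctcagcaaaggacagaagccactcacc
Apcs: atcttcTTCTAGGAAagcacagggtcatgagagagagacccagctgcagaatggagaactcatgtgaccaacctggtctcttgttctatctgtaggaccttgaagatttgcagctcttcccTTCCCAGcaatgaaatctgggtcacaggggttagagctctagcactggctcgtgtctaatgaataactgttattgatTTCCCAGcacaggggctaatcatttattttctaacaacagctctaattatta
Fgb: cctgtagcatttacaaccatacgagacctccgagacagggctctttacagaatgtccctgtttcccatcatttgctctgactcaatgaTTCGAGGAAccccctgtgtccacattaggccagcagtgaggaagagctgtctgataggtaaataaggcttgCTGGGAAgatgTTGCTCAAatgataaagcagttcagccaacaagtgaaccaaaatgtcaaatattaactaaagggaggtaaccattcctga
Socs3: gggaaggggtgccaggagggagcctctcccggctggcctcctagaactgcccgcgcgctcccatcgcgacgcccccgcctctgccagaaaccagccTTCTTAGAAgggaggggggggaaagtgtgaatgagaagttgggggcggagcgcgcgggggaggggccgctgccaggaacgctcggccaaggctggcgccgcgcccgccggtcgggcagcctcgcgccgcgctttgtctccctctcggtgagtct
The Saa1 window lies at chr7:46742981-46743230 on the minus strand, Saa2 at chr7:46751583-46751832 on the plus strand and Saa3 at chr7:46715677-46715926 on the minus strand. The Apcs window is chr1:172895055-172895304, the Fgb window chr3:83049864-83050113 and the Socs3 window chr11:117969367-117969616, all on the minus strand. The Socs3 and Saa3 windows lie inside the listed spans of their genes (chr11:117966079-117970336 and chr7:46711998-46719615). The Saa1 window overlaps its gene's span, which ends at 46743181. The windows of Socs3, Saa3 and Saa1 thus precede a start within the span and not its outer end. The 3 serum amyloid windows each held 1 C/EBP word and neither of the other motifs. Apcs held a STAT palindrome and the reverse complement of the interleukin-6 element at 2 places, Fgb held all 3 motifs, and Socs3 held a STAT palindrome. Motifs were counted in the first window listed for each gene. Among the 27 listed genes with a window, the STAT palindrome was found in 5 (Apcs, Fga, Fgb, Itih4 and Socs3), against 7.18% of the windows of 27025 genes. The interleukin-6 element was found in 4 (Apcs, Fgb, Fgg and Il1rn), against 9.08%. The C/EBP word was found in 14, against 9.55%. These were Ahsg, Alb, C3, Fga, Fgb, Hpx, Il1r1, Lcn2, Orm2, Orm3, Saa1, Saa2, Saa3 and Saa4. Ahsg and Alb are negative genes, and the related Saa and Orm genes were counted separately. A consensus NF-kB word was found in the first window of 0 of the 27, against 3.75%. In a second window, Il1r1 held an NF-kB word and Cp a C/EBP word. Cd14, Lbp, Orm1, Hp, A2m, Serpina3m, Ttr, C4b, Cfb and Trf had no window in the table. These are matches of letters in a short window and no evidence of binding.

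The targeted genes did not all follow the labels. Mapk8, which encodes JNK1, fell by 0.87 at 52 weeks and by 1.02 after ligation, and Ikbkg, which encodes NEMO, fell by 0.85 at 52 weeks (limma adjusted p of 0.00259, 0.0299 and 0.0043). Mapk8 was also lower in every JNKΔhepa liver after DEN and in every 8-week liver labelled NEMO/JNK1Δhepa, with differences of -0.64 and -0.61 that were not called (limma adjusted p of 0.985 and 0.602). Mapk9, which encodes JNK2, lay between 2.82 and 3.51 in all 18 livers outside the 8-week groups, the livers labelled control included, and between 7.99 and 8.53 in the 6 livers of 8 weeks. The 9 livers labelled control had Mapk9 values as low as those of the JNKΔhepa and NEMO/JNKΔhepa livers, and they are called livers labelled control throughout. In the 6 livers of 8 weeks, which the labels give as deleted for NEMO, Ikbkg lay between 6.76 and 7.26, against 6.82 to 7.49 in the livers labelled control and 6.43 to 6.47 in the NEMO/JNKΔhepa livers. The 8-week livers are therefore also named by their labels. Replicate 3 of the JNKΔhepa livers after DEN had an Xist value of 10.38, against at most 3.87 in the other 23 livers. The Y-linked genes Uty and Kdm5d were at 2.81 and 3.66 in that liver, against at least 5.82 and 5.86 in the other 23. By these genes that liver was female and the others male, so the comparisons with this group mix the sexes. Hepatocyte markers averaged between 11.56 and 12.17 in every liver. By the prefix of the mouse identifiers, replicates 1 and 2 of the livers labelled control after ligation came from another animal series than every JNKΔhepa liver, and the 8-week groups came from different series, so that series and genotype cannot be told apart there.

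Across the 8 groups, most of the 33 genes had their highest mean after bile duct ligation. The highest group mean was in JNKΔhepa livers after ligation for 21 of the 33 genes and in livers labelled control after ligation for 8. Among these were the negative genes Trf and Ahsg, but not Alb and Ttr, and Mug2, which was lowest in livers labelled control after ligation. The lowest group mean was in an 8-week group for 17 genes and in the 52-week livers labelled control for 10. The matching shares over all genes were not computed, so these counts are no result particular to acute phase genes. Saa2 had the widest range of group means, 6.78 log2 units, followed by Saa3 with 4.97, A2m with 3.89 and Orm3 with 3.67. The negative acute phase genes had narrow ranges, 0.17 for Alb, 0.28 for Ttr, 0.28 for Ahsg and 0.38 for Trf. All 4 lay near the highest value of the table (13.48), and whether the array compresses differences at that level was not tested. Injury, age and experiment differ together between these groups, so their order is a description.

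**Figure D1:**
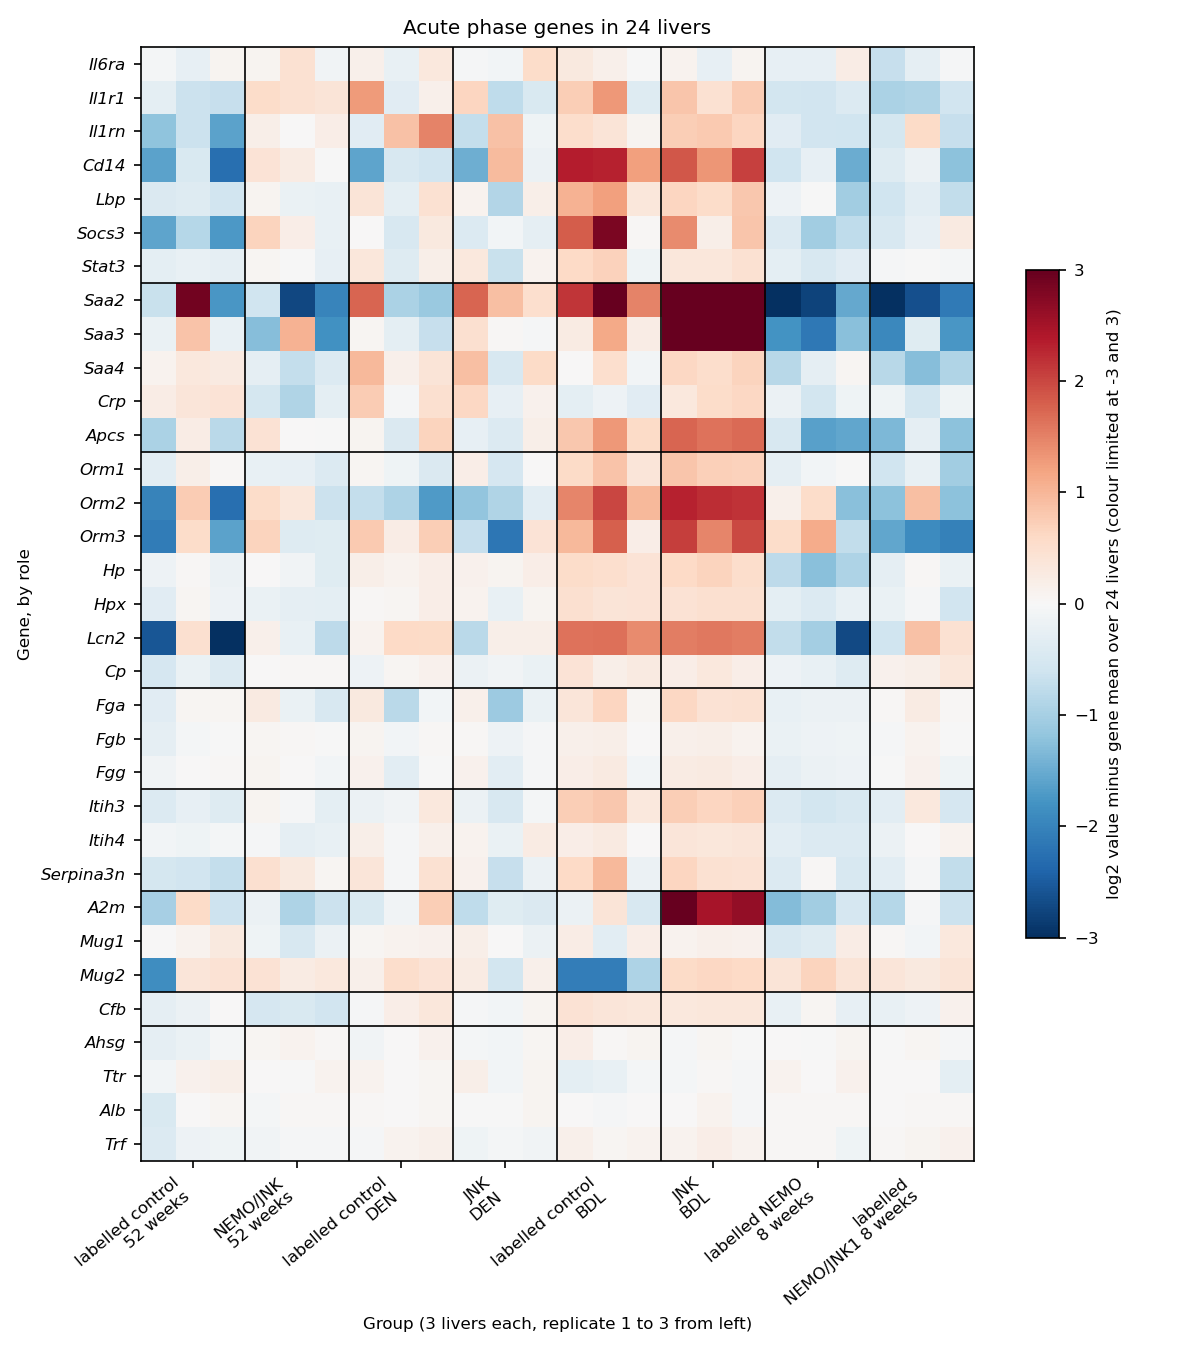
Heat map of the 33 measured acute phase genes (rows, ordered by role with lines between roles) in 24 livers (columns, 3 per group), coloured by the log2 value minus the gene's mean over the 24 livers, with the colour limited at -3 and 3. The red block of Saa2, Saa3 and A2m lies in the 3 JNKΔhepa livers after ligation, and the 4 negative acute phase genes at the bottom stay near white.

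After bile duct ligation, JNKΔhepa livers had more RNA of 2 serum amyloid and pentraxin genes and of 2 alpha-macroglobulins than livers labelled control. Saa3 was 6.53-fold higher, A2m 8.17-fold, Mug2 4.90-fold and Crp 1.69-fold. The A2m fold is a ratio of array signals and no measured RNA ratio, because A2m in livers labelled control lay near the array medians of 4.52 to 4.66 and was not shown to be above background. With limma, 4 of the 33 genes rose and 0 fell, that is 12.1% of the genes, where 1.35% of all 18820 genes were called, 0.797% higher and 0.558% lower. The median difference over the 33 genes was 0.10, and that over all genes was -0.0018. At an unadjusted p under 0.05, 10 of the 33 were higher and 0 lower, against 14.6% of all genes in either direction.

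All 5 serum amyloid and pentraxin genes lay higher in every JNKΔhepa liver after ligation than in any liver labelled control. Saa3, an amyloid that macrophages and other cells also make, was at 6.30, 7.21 and 6.28 in the livers labelled control and at 9.20, 9.46 and 9.25 in the JNKΔhepa livers. The groups were far apart, with a mean of 6.60 ± 0.53 against 9.30 ± 0.14 (SD, n = 3), a difference of 2.71 (SE 0.24) and a limma adjusted p of 0.00292. Crp, the pentraxin that binds phosphocholine, was at 10.10, 10.23 and 10.06 against 10.71, 10.93 and 11.02. Crp differed by 0.76 (SE 0.12, limma adjusted p = 0.0275) without overlap. The JNKΔhepa mean of 10.89 was near that of livers labelled control after DEN (10.79) and at 52 weeks (10.73). The mean of livers labelled control after ligation, 10.13, was near those of the 8-week groups (10.11 and 10.12), and NEMO/JNKΔhepa livers were lowest (9.81).

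Saa2, a main circulating amyloid A, was at 11.23, 12.25 and 10.57 against 12.87, 12.95 and 13.05. Its difference of 1.61 (SE 0.36) did not pass the threshold (limma adjusted p = 0.0909), although the groups did not overlap. The probe set that Saa1 and Saa2 share showed the same order, with 9.88, 10.75 and 9.51 against 11.63, 11.51 and 11.57. Apcs, the serum amyloid P pentraxin, was at 10.90, 11.38 and 10.67 against 11.83, 11.70 and 11.78, a difference of 0.79 with a limma adjusted p of 0.0924. Saa4, the constitutive amyloid, differed by 0.46 (limma adjusted p = 0.241). For these 3 genes the JNKΔhepa livers were higher but the test was not passed.

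The alpha-macroglobulins, which trap proteases in plasma, divided into genes that rose and a gene that did not pass the test. A2m was at 4.54, 5.12 and 4.24 in the livers labelled control and at 8.45, 7.19 and 7.35 in the JNKΔhepa livers. The mean of 7.66 ± 0.69 against 4.63 ± 0.44 gave a difference of 3.03 (SE 0.35, limma adjusted p = 0.00824). In the other 21 livers of the study A2m never exceeded 5.47, so the JNKΔhepa livers after ligation were the only ones above that level. Mug2, murinoglobulin 2, was at 9.46, 9.47 and 10.60 in the livers labelled control and at 12.12, 12.15 and 12.14 in the JNKΔhepa livers. It rose by 2.29 (SE 0.29, limma adjusted p = 0.0105), and the JNKΔhepa level was within the range of the other groups, where single livers lay between 9.66 and 12.21. The low group was therefore the livers labelled control after ligation. A second Mug2 probe set had 9.23, 9.14 and 10.21 against 11.89, 11.92 and 11.98. Mug1, its close relative, was at 12.24, 11.70 and 12.22 against 12.13, 12.17 and 12.15, a difference of 0.10 (limma adjusted p = 0.835). Mug1 and Mug2 are near-identical copies, and how far their probe sets cross-hybridise was not tested.

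**Figure D2:**
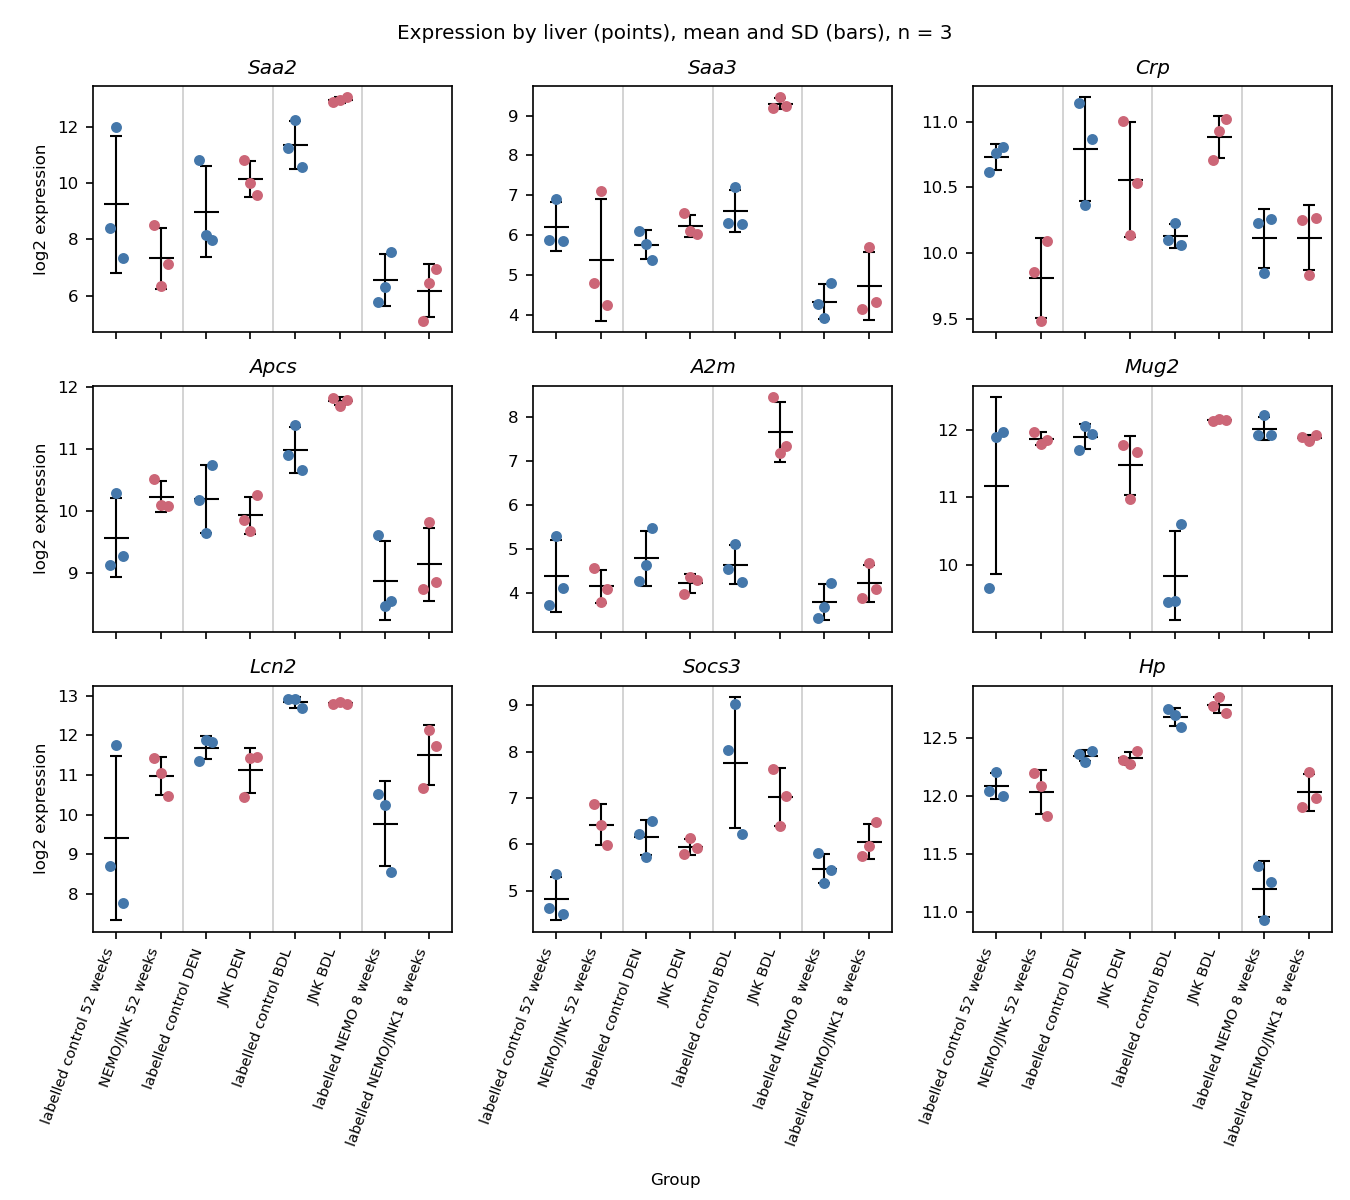
Log2 expression of 9 acute phase genes (vertical axes, a separate scale for each gene) in the 8 groups (horizontal axis), with 1 point per liver, blue for the first and red for the second genotype of each pair, and bars for the mean and SD of 3 livers. Saa3 and A2m stood highest in JNKΔhepa livers after ligation, at 9.20 to 9.46 and 7.19 to 8.45, and Mug2 was lowest in the livers labelled control after ligation.

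The other roles showed little after ligation. Of the 7 carriers and scavengers, 0 passed the test. Orm2, an orosomucoid that binds drugs and steroids, was at 11.74, 12.28 and 11.25 against 12.57, 12.49 and 12.44, a difference of 0.74 (limma adjusted p = 0.194). Orm3 differed by 0.86 with overlapping groups (limma adjusted p = 0.332). Lcn2, which sequesters bacterial iron carriers, was at 12.90, 12.91 and 12.68 against 12.79, 12.84 and 12.79, high in all 6 livers. Hp, Hpx, Cp and Orm1 differed by between -0.05 and 0.15.

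Fibrinogen chains, protease inhibitors and complement factor B had 0 of 7 genes called after ligation. Their differences ran from -0.04 for Cfb to 0.19 for Itih4. The 4 negative acute phase genes also had 0 called, with differences of -0.10 for Ahsg, 0.17 for Ttr, 0.03 for Alb and 0.04 for Trf. The 95% interval for Alb was -0.19 to 0.25, so a change beyond that size was not seen. Ttr, the thyroxine and retinol carrier, was at 12.35, 12.44 and 12.58 against 12.59, 12.68 and 12.62, without overlap and without passing the test (limma adjusted p = 0.52).

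Among the receptors and signalling genes, 0 of 7 were called after ligation. Il1rn, the interleukin-1 receptor antagonist, was at 6.44, 6.30 and 6.01 against 6.64, 6.71 and 6.55, a difference of 0.39 (limma adjusted p = 0.228). Socs3, the feedback inhibitor of STAT3, was at 8.03, 9.03 and 6.24 against 7.64, 6.39 and 7.04, and replicate 3 of the livers labelled control was the lowest of the 6. Stat3 differed by -0.01 and Il6ra by -0.16. In all, 11 of the 33 genes lay higher in every JNKΔhepa liver (33.3%, against 9.95% of all genes) and 1, Cfb, lay lower in every one (3.03%, against 10.7%).

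The calls after ligation depended in part on single livers and on the animal series. Without replicate 2 of the livers labelled control, 8 genes rose, with Saa2, Saa4, Apcs and Orm2 added (limma adjusted p of 0.00576, 0.0391, 0.0129 and 0.0317). Without any 1 of the JNKΔhepa livers, 2 rose, Saa3 and A2m, and the p of Mug2 was between 0.0547 and 0.0701. Replicate 3 of the livers labelled control was the lowest of its group in 25 of 33 genes, and without it the count stayed at 4. With the animal series as a term, which compares the JNKΔhepa livers with that replicate 3 alone, the spread comes from the other livers and the lone liver is assumed to vary like them. The differences were 3.02 for Saa3, 3.42 for A2m, 1.53 for Mug2 and 2.39 for Saa2 (limma adjusted p of 0.0166, 0.0346, 0.00877 and 0.0403). Crp then differed by 0.83 and missed the threshold (limma adjusted p = 0.107). Crp also missed it with all 24 arrays in 1 fit (limma adjusted p = 0.13).

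Markers of other cell types were followed beside these results. Of 11 neutrophil markers, 0 were called after ligation and all 11 had a difference above 0, and their mean level lay between 4.99 and 5.99 in livers labelled control and between 5.93 and 6.34 in JNKΔhepa livers. Of 12 macrophage markers, 1 rose (Lyz2), with mean levels of 8.78 to 8.96 and of 9.01 to 9.28. Of 9 cholangiocyte markers, 0 were called, with mean levels of 5.14 to 6.31 and of 6.28 to 6.91, and Cftr had a group mean under 4 in livers labelled control. The neutrophil and macrophage lists had 0 markers with a group mean under 4. Of 7 stellate cell markers, 1 rose (Acta2) and 1 fell (Lrat), with mean levels of 8.38 to 9.03 and of 8.54 to 8.67. Of 6 endothelial markers, 1 fell (Lyve1), with mean levels of 8.14 to 8.33 and of 8.17 to 8.52. Of 9 hepatocyte and 6 plasma cell markers, 0 were called. The part of these cells in the acute phase values was not tested, and in whole liver fewer cells of a type and less RNA per cell cannot be told apart.

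The wider interleukin-6 and acute phase lists had single calls after ligation, where 1.35% of all genes were called. Of 13 other interleukin-6 family ligands and receptors, 1 rose, Il6 itself, at 2.02, 2.18 and 2.06 against 2.72, 2.74 and 2.64 (difference 0.61, limma adjusted p = 0.0306). These are very dim values, near the low end of a table that runs from 0.68 to 13.48. Of 30 other positive acute phase genes, 1 rose and 1 fell. Hamp2, a hepcidin gene, was at 6.46, 5.75 and 5.53 against 8.58, 8.38 and 8.83 (difference 2.68, limma adjusted p = 0.00292). After DEN, Hamp2 was at 6.19, 5.94 and 5.58 against 7.38, 8.13 and 9.65, also without overlap but uncalled (difference 2.49, limma adjusted p = 0.985). The value of 9.65 is that of replicate 3, the liver with the Xist signal, and how sex bears on Hamp2 was not tested. After ligation, Hgf, the hepatocyte growth factor, fell by 0.98 (limma adjusted p = 0.0207). Of 21 other negative acute phase genes, 2 rose: the corticosteroid carrier Serpina6 by 1.68 and the thyroxine carrier Serpina7 by 1.81 (limma adjusted p of 0.00394 and 0.000611). Of these 21 genes, 17 had a difference above 0. In every JNKΔhepa liver 9 of them lay higher and 3 lower, against 9.95% and 10.7% of all genes. Genes that classically decline thus also lay higher. The lists for interleukin-1 and TLR4 signalling, for JAK kinases, STATs and their inhibitors, and for transcription factors had 0 of 15, 0 of 17 and 0 of 13 called.

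After DEN, none of the 33 acute phase genes differed between JNKΔhepa livers and livers labelled control by the limma test, and 0% of all genes were called. At an unadjusted p under 0.05 the count was 0 of 33, against 4.15% of all genes. The smallest p-values belonged to Orm3 and Saa3. Orm3, an orosomucoid, was at 7.67, 7.12 and 7.64 in livers labelled control and at 6.21, 4.72 and 7.30 in JNKΔhepa livers, a difference of -1.40 with a 95% interval of -2.80 to 0.0015 (limma adjusted p = 0.985). Saa3 was at 6.11, 5.77 and 5.38 against 6.54, 6.11 and 6.04, a difference of 0.48 with an interval of -0.06 to 1.01 (limma adjusted p = 0.985). The groups overlapped for both genes.

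The DEN groups did not overlap for 0 genes on the higher side (3.26% of all genes) and for 1 gene, Trf, on the lower side (6.21% of all genes). Trf, which carries iron, was at 13.01, 13.16 and 13.20 against 12.93, 13.00 and 12.96. The median difference was -0.16 over the 33 genes and -0.02 over all genes. A2m was at 4.25, 4.62 and 5.47 against 3.97, 4.36 and 4.29, and Mug2 at 11.69, 12.05 and 11.94 against 11.78, 10.98 and 11.68. Without the JNKΔhepa liver with the Xist signal, 0 genes were called as well. The intervals were wide for the variable genes, such as -0.66 to 2.96 for Saa2, so that changes of a few fold in these genes were not detectable with 3 livers.

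The difference between the JNK effects in the 2 injuries was tested in 12 arrays. A2m passed, with a difference of 3.03 after ligation and of -0.57 after DEN, both against signals not shown to be above background, and 3.60 between them (SE 0.52, 95% interval 2.46 to 4.75, limma adjusted p = 0.0459). It was 1 of 33 genes (3.03%), and 0.0478% of all genes were called, 0.0213% higher and 0.0266% lower. Mug2 had a difference of 2.71 and Saa3 of 2.23 and missed the threshold (limma adjusted p of 0.0546 and 0.0823). The positive acute phase proteins had 0 of 19 called, all 19 with a difference above 0. So did 3 of the 4 negative genes and 20 of 21 other negative acute phase genes, with 0 called. The share of all genes above 0 was not computed, so this direction is not particular to positive genes. The call on A2m was lost with the animal series as a term (3.99, limma adjusted p = 0.169). It was also lost without each of 10 of the 12 livers, at adjusted p between 0.0645 and 0.168. It was kept without replicate 1 of the DEN livers labelled control and without replicate 2 of the ligated livers labelled control.

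**Figure D3:**
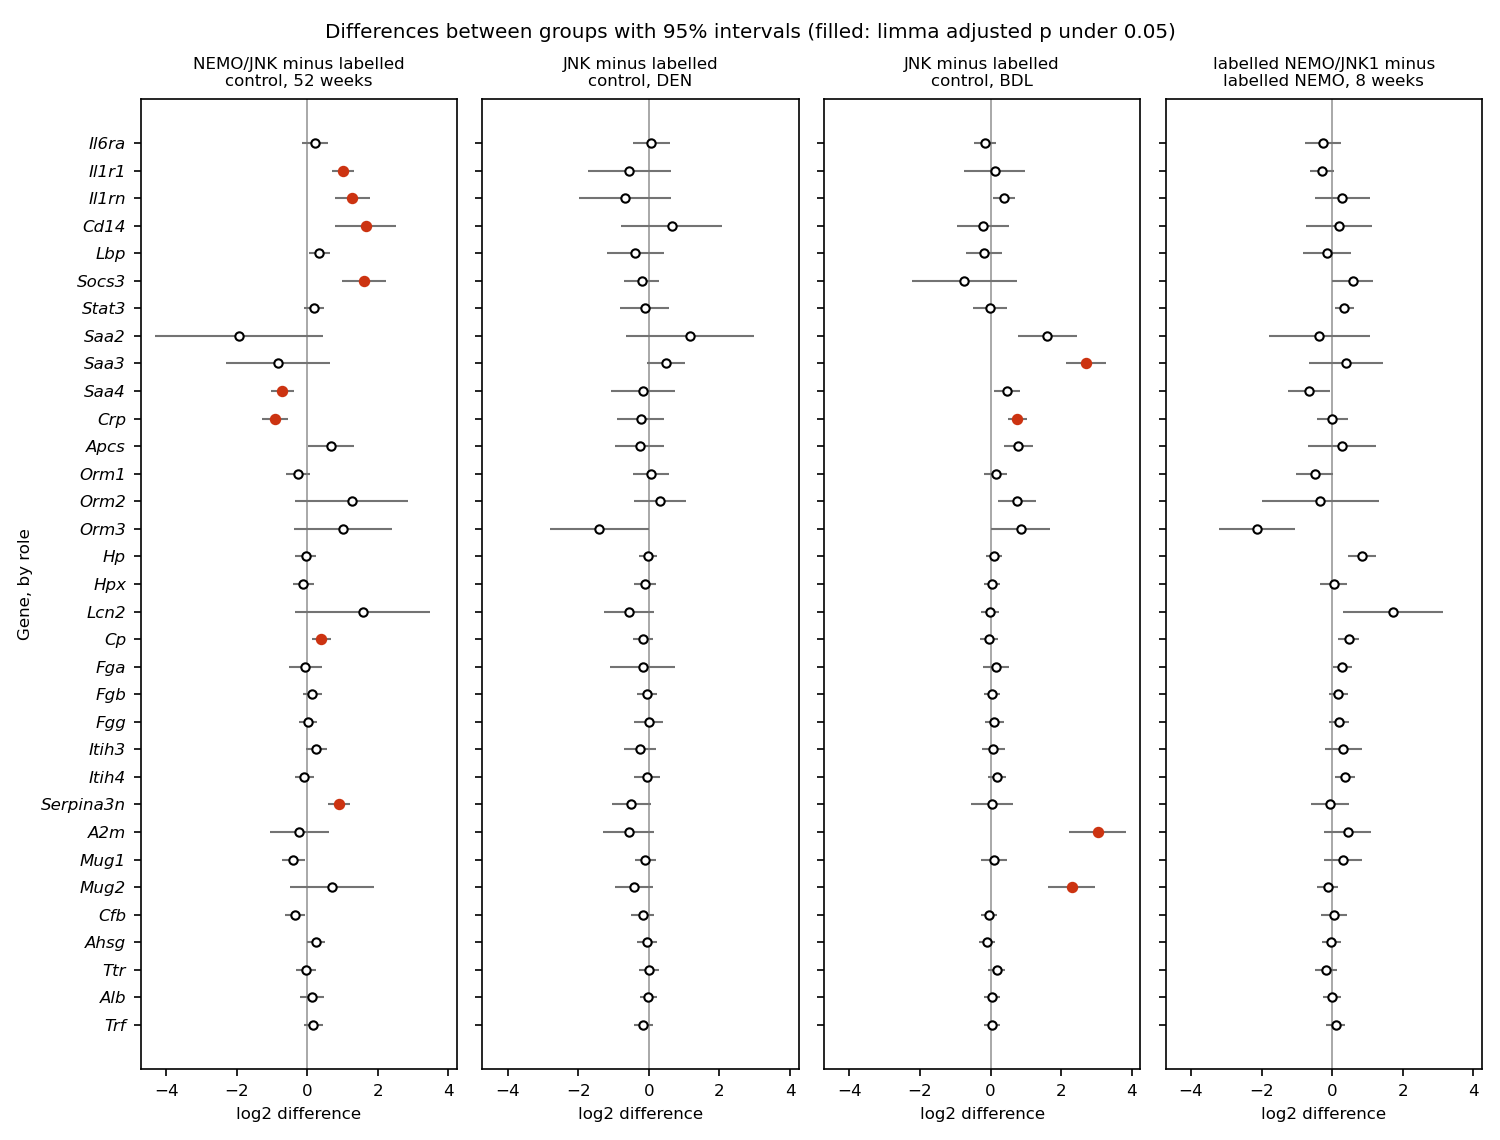
Log2 difference between the genotypes (horizontal axis) for each of the 33 acute phase genes (vertical axis, by role) in the 4 paired comparisons, with 95% intervals as bars and filled red points where the limma adjusted p was under 0.05. The filled points are 8 at 52 weeks, 0 after DEN, 4 after ligation and 0 at 8 weeks.

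In untreated livers at 52 weeks, NEMO/JNKΔhepa livers had higher Cd14, Socs3, Il1rn and Il1r1 and lower Crp and Saa4 than livers labelled control. Cd14 was 3.16-fold higher, Socs3 3.04-fold, Il1rn 2.43-fold and Il1r1 2.00-fold, and 4 of the 7 receptor and signalling genes rose. Of all 33, 6 rose and 2 fell, which is 24.2% of the genes. This comparison called 21.5% of all genes (13.6% higher, 7.9% lower), so the share of acute phase genes was close to the background. The median difference was 0.18 over the 33 genes and -0.0451 over all genes.

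Cd14, the co-receptor for endotoxin, was at 5.37, 6.51 and 4.70 in livers labelled control and at 7.39, 7.22 and 6.95 in NEMO/JNKΔhepa livers (difference 1.66, SE 0.38, limma adjusted p = 0.0153). Socs3 was at 4.63, 5.36 and 4.49 against 6.88, 6.41 and 5.99 (difference 1.60, SE 0.27, limma adjusted p = 0.00392). The second Socs3 probe set was dimmer and its groups overlapped, with 4.18, 4.40 and 4.66 against 5.45, 5.0 and 4.52. Il1rn was at 4.72, 5.27 and 4.31 against 6.10, 5.92 and 6.11 (difference 1.28, limma adjusted p = 0.00407). Il1r1, the signalling receptor for interleukin-1, was at 8.26, 7.92 and 7.87 against 9.11, 9.02 and 8.94 (difference 1.00, limma adjusted p = 0.00149). No NEMO/JNKΔhepa liver overlapped the livers labelled control in these 4 genes. Lbp, which hands endotoxin to Cd14, differed by 0.34 without overlap and missed the threshold (limma adjusted p = 0.0949). Il6ra and Stat3 differed by 0.22 and 0.19 with overlapping groups.

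The serum amyloids and pentraxins had 0 of 5 higher and 2 of 5 lower at 52 weeks. Crp was at 10.62, 10.76 and 10.81 in livers labelled control and at 9.86, 9.49 and 10.09 in NEMO/JNKΔhepa livers, and fell by 0.92 (SE 0.16, limma adjusted p = 0.00485). Saa4 was at 11.31, 11.52 and 11.48 against 10.93, 10.48 and 10.79, and fell by 0.71 (SE 0.14, limma adjusted p = 0.00937). Both were lower in every NEMO/JNKΔhepa liver. Saa2 was at 8.42, 11.99 and 7.34 against 8.49, 6.35 and 7.12, and its difference of -1.93 had a 95% interval of -4.31 to 0.45. Saa3 was at 5.88, 6.91 and 5.85 against 4.79, 7.12 and 4.25, so that 1 NEMO/JNKΔhepa liver was the highest and the other 2 were the lowest. Without that liver, replicate 2, Saa3 differed by -1.70 and passed the test (limma adjusted p = 0.0107). Apcs differed by 0.67 (limma adjusted p = 0.136).

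Serpina3n, an inhibitor of neutrophil proteases, was at 11.23, 11.18 and 11.04 against 12.24, 12.05 and 11.83, and rose by 0.89 (SE 0.14, limma adjusted p = 0.00254). Cp, the copper-carrying ceruloplasmin, was at 11.56, 11.87 and 11.65 against 12.08, 12.10 and 12.10, and rose by 0.40 (limma adjusted p = 0.0477). The rise of Cp sat at the threshold and was lost with array weights, with the arrays centred on their medians, with the replicate number as a block, and without each of 5 of the 6 livers. The other carriers were uncalled. Orm2 was at 8.26, 11.03 and 8.02 against 10.82, 10.62 and 9.64, and Lcn2 at 8.70, 11.74 and 7.78 against 11.42, 11.04 and 10.47. In both genes, replicate 2 of the livers labelled control was higher than every NEMO/JNKΔhepa liver.

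That replicate 2 was the highest of its group in 19 of the 33 genes, with Saa2 at 11.99, Lcn2 at 11.74 and Orm2 at 11.03. Without it 10 genes rose and 2 fell, with Lcn2 at a difference of 2.74, Orm2 at 2.22, Orm3 at 1.82 and Apcs at 1.03 added (limma adjusted p of 0.00146, 0.00311, 0.00762 and 0.00597). Without replicate 1 of the livers labelled control, 4 genes rose, and Cd14 missed the threshold at an adjusted p of 0.0587. Without replicate 1 of the NEMO/JNKΔhepa livers, 4 genes rose, and the adjusted p of Cd14 was 0.0505. Socs3, Il1rn, Il1r1 and Serpina3n kept their calls without any 1 liver. With all 24 arrays in 1 fit, Il1r1 and Saa4 missed the threshold (limma adjusted p of 0.0772 and 0.0925).

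Fibrinogen, the alpha-macroglobulins and the negative genes showed 0 calls at 52 weeks. Mug2 was at 9.66, 11.90 and 11.96 in livers labelled control and at 11.96, 11.78 and 11.85 in NEMO/JNKΔhepa livers, with replicate 1 of the first group far below the rest. Mug1 and Cfb differed by -0.39 and -0.35 without overlap (limma adjusted p of 0.0782 and 0.0708). A2m was between 3.73 and 5.29 in all 6 livers. Alb differed by 0.14 and Ttr by -0.04, with overlapping groups. Ahsg and Trf differed by 0.24 and 0.18 and lay higher in every NEMO/JNKΔhepa liver, without passing the test. In all, 10 genes lay higher in every NEMO/JNKΔhepa liver (30.3%, against 20.9% of all genes) and 4 lay lower (12.1%, against 20.3%).

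Centring each array on its median moved the median difference of all genes at 52 weeks from -0.0451 to -0.37. With the arrays centred, 9 of the 33 acute phase genes were called lower, with Cfb, Mug1, Orm1, Hpx, Hp, Itih4 and Ttr added. Cp was at 0.07 and uncalled. These calls test for any difference and not for one beyond the shift. Hp at -0.37 and Ttr at -0.36 lay at the shift itself, and Itih4 at -0.41 and Hpx at -0.44 lay near it. Over all 18820 genes, the calls went from 2562 higher and 1486 lower to 1570 higher and 8942 lower. The share called lower was thus smaller among the acute phase genes than among all genes. The rises of Socs3, Il1rn, Il1r1, Cd14 and Serpina3n and the declines of Crp and Saa4 were called under both scalings.

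Cell type markers differed strongly between the same 52-week groups. All 9 cholangiocyte markers rose, and their mean level was 4.38 to 4.91 in livers labelled control and 7.49 to 7.96 in NEMO/JNKΔhepa livers. Of 12 macrophage markers 10 rose, with mean levels of 7.34 to 7.92 and of 8.43 to 9.65, and of 6 plasma cell markers 4 rose, with 6.21 to 7.50 and 8.41 to 8.56. Of 11 neutrophil markers 1 rose (Csf3r), with 3.73 to 4.60 and 4.17 to 5.06. Cftr and the neutrophil genes Mpo, Cxcr2, Retnlg, Mmp8, Camp and Ngp had group means under 4 in livers labelled control. Of 9 hepatocyte markers 2 fell, with mean levels of 11.95 to 12.17 and of 11.86 to 11.95. The part of these cell types in the values of Cd14, Socs3, Il1rn, Il1r1 and Serpina3n was not tested.

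Other genes of the pathway were called in both directions at 52 weeks, where 13.6% of all genes were called higher and 7.9% lower. Of 13 interleukin-6 family ligands and receptors, 4 rose and 2 fell. The interleukin-22 receptor Il22ra1 was at 6.08, 6.31 and 6.04 against 8.05, 7.68 and 7.79, the cytokine Clcf1 at 4.79, 4.23 and 3.93 against 6.40, 6.35 and 6.14, and the shared chain Il10rb at 7.35, 7.61 and 7.24 against 8.50, 8.52 and 8.57. They rose by 1.69, 1.98 and 1.13 (limma adjusted p of 0.000151, 0.000413 and 0.000648). Of 15 interleukin-1 and TLR4 genes, 3 rose and 1 fell, including Tlr4, which rose by 1.13, Il18bp, which rose by 1.13, and the receptor chain Il1rap, which fell by 1.37 (limma adjusted p of 0.000671, 0.0127 and 0.000521). Of 17 JAK, STAT and inhibitor genes, Ptpn6 rose by 0.61 and Stat5a and Stat5b fell by 0.49 and 0.54. Of 13 transcription factors, Cebpa fell by 0.73 and Nr1h4 by 0.93, and 0 rose.

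Acute phase genes outside the 33 are given by count, against the same 13.6% higher and 7.9% lower among all genes. Of 30 other positive acute phase genes, 0 rose and 3 fell: the lectin Mbl1 by 2.05, the antitrypsin Serpina1c by 0.79 and the complement gene C9 by 0.93 (limma adjusted p of 0.00017, 0.00407 and 0.0158). Of 21 other negative acute phase genes, 1 rose and 5 fell, with Igfals falling by 1.38, Itih1 by 0.83 and Igf1 by 1.02 (limma adjusted p of 0.00105, 0.00184 and 0.00376).

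In 8-week livers, no acute phase gene differed between livers labelled NEMO/JNK1Δhepa and livers labelled NEMOΔhepa by the limma test, and 0% of all genes were called. At an unadjusted p under 0.05, 6 of the 33 were higher and 2 lower, against 7.66% of all genes. The smallest p-values belonged to Hp and Orm3. Hp, the haemoglobin-binding haptoglobin, was at 11.39, 10.92 and 11.26 in livers labelled NEMOΔhepa and at 11.90, 12.21 and 11.98 in livers labelled NEMO/JNK1Δhepa (difference 0.84, 95% interval 0.45 to 1.23, limma adjusted p = 0.544). Orm3 was at 7.45, 8.01 and 6.16 against 5.33, 5.01 and 4.87 (difference -2.13, 95% interval -3.20 to -1.07, limma adjusted p = 0.544). Neither gene's groups overlapped.

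With all 24 arrays in 1 fit, which borrows the spread of the other groups, Hp was called at 8 weeks (limma adjusted p = 0.00327). At 8 weeks 8 genes lay higher in every liver labelled NEMO/JNK1Δhepa (24.2%, against 6.71% of all genes): Hp, Lcn2, Cp, Fga, Fgb, Fgg, Itih4 and Stat3. The 2 genes lower in every liver (6.06%, against 7.66%) were Orm3 and Il1r1. Lcn2 was at 10.51, 10.25 and 8.56 against 10.66, 12.14 and 11.72. The 3 fibrinogen chains, which form the clot together, differed by 0.29 for Fga, 0.18 for Fgb and 0.20 for Fgg. Replicate 2 of the livers labelled NEMO/JNK1Δhepa was the highest of its group in 20 of 33 genes, and its neutrophil and macrophage marker means were 6.45 and 10.45, against 3.62 to 4.24 and 7.66 to 9.12 in the other 2 livers. Animal series and genotype cannot be told apart at 8 weeks. The part of these cells in the values was not tested. The interleukin-6, interleukin-1, JAK and STAT, transcription factor and other acute phase lists had 0 genes called at 8 weeks, and the smallest p belonged to Socs2, an inhibitor of cytokine signalling, with a difference of 2.25 (limma adjusted p = 0.233).

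Livers labelled control differed between the injuries in 4 acute phase genes. After ligation, 3 genes were higher and 1 lower than after DEN, 12.1% of the 33, where 2.48% of all genes were called (1.74% higher, 0.739% lower). Cd14 was at 5.40, 6.50 and 6.39 after DEN and at 9.32, 9.28 and 8.20 after ligation (difference 2.84, limma adjusted p = 0.0175). Orm2 was at 9.55, 9.34 and 8.57 against 11.74, 12.28 and 11.25 (difference 2.60, limma adjusted p = 0.0142), and Lcn2 at 11.36, 11.87 and 11.83 against 12.90, 12.91 and 12.68 (difference 1.14, limma adjusted p = 0.0208). These 3 genes, for endotoxin sensing and ligand carriage, were higher in every ligated liver.

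Mug2 was the gene that was lower, at 11.69, 12.05 and 11.94 after DEN and 9.46, 9.47 and 10.60 after ligation (difference -2.05, limma adjusted p = 0.0218). In all, 10 genes lay higher in every ligated liver (30.3%, against 12.8% of all genes) and 3 lay lower (9.09%, against 12.2%). These 3 were Mug2, Ttr and Crp, and Crp differed by -0.66 without passing the test (limma adjusted p = 0.128). With the animal series as a term, 0 of these calls were kept, with differences of 2.11 for Cd14, 2.09 for Orm2, 0.99 for Lcn2 and -1.29 for Mug2. Without replicate 2 of the DEN livers or replicate 1 of the ligated livers, 0 were kept either. Cell type markers moved in the same comparison. Of 9 cholangiocyte markers 4 were higher after ligation, with mean levels of 4.53 to 5.18 after DEN and of 5.14 to 6.31 after ligation, and Cftr had a mean under 4 after DEN. Of 7 stellate cell markers 4 were higher, with 7.27 to 7.35 and 8.38 to 9.03, and of 12 macrophage markers 2 were higher, with 7.95 to 8.38 and 8.78 to 8.96. Of 11 neutrophil markers 0 were called and all 11 had a difference above 0, with 4.08 to 4.80 and 4.99 to 5.99, and Retnlg, Mmp8 and Camp had means under 4 after DEN. Of 6 endothelial and 9 hepatocyte markers 1 each was lower, and of 6 plasma cell markers 0 were called. The part of these cells in the values was not tested. Injury, time since treatment and experiment differ together here. This comparison shares its livers with the comparisons of genotype within each injury.

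The acute phase genes also differed in how evenly the livers of a group expressed them. The SD within groups was 1.25 for Saa2, 0.91 for Lcn2, 0.89 for Orm2, 0.85 for Orm3 and 0.72 for Saa3, each larger than in at least 98.1% of all genes, whose median was 0.20. The negative genes, near the top of the scale, had small SDs, with 0.078 for Ahsg, 0.081 for Trf, 0.107 for Ttr and 0.108 for Alb. Fgb, with 0.079, was as low as these, and Fga, with 0.362, was not. The 95% interval of the difference after ligation was accordingly 0.77 to 2.44 for Saa2 and 0.48 to 1.03 for Crp. The values of Alb lay between 12.75 and 13.31.

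**Figure D4:**
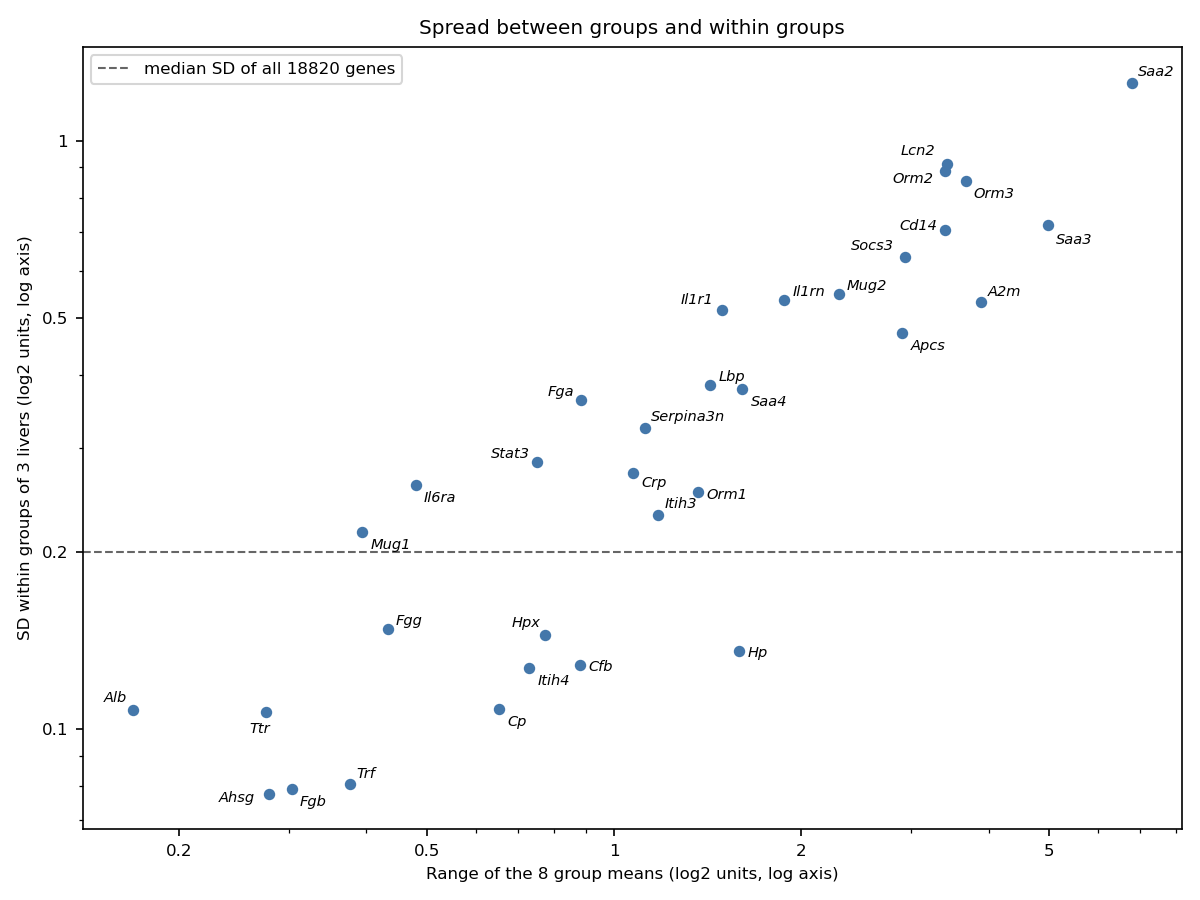
SD between livers of a group (vertical axis, log2 units, log scale) against the range of the 8 group means (horizontal axis, log2 units, log scale) for the 33 acute phase genes, with the median SD of all 18820 genes as a dashed line. Saa2 lies at the upper right with an SD of 1.25 and a range of 6.78, and Alb, Ttr, Ahsg, Fgb and Trf lie at the lower left.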

How the data were processed

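Liver RNA of 24 mice was hybridised to whole-transcript Affymetrix arrays. The authors deposited log2 values, made with RMA per the submitters' processing notes, for 35556 probe sets. RMA subtracts background, equalises the distributions of the arrays and summarises probes. These steps can narrow differences of very dim genes, and whether those of very bright genes are narrowed on the array was not tested. Of the probe sets, 21218 had 1 gene symbol in the platform annotation, 1881 several and 12457 none. Array medians over all 35556 probe sets lay between 4.52 and 4.66. The number of arrays, 3 per group, limits the precision.

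The 33 genes and the accompanying lists were chosen with earlier results of these data known. Each of 6 comparisons was fitted over all 18820 genes with limma 3.58.1 in R 4.3.3, on its own arrays, with Benjamini-Hochberg adjustment and a threshold of 0.05, two-sided. A difference between groups of 3 could not be called by an exact permutation test, whose smallest p is 0.1. Intervals are 95%. The procedure was tested on simulated data. Values per liver were given for genes called in a comparison, and for the 2 with the smallest p where fewer than 2 were called. Other genes given with values, such as Saa2 and Apcs after ligation, Lcn2, Mug1 and Ttr, were chosen after their values were seen. Alternatives were quantile normalisation, centring of arrays, leaving out genes with a mean under 5, all 24 arrays in 1 fit, array weights, another variance prior, the mean of a gene's probe sets, each liver left out, replicate number as a block and the animal series. Where leaving a liver out left 2 in a group, the spread was pooled with the other group.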

Additional observations from a re-analysis of the deposited data

Results flagged for a closer look

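The effect of the JNK genotype on A2m differed between the 2 injuries by the interaction test. It was 3.03 log2 units after bile duct ligation and -0.57 after DEN, a difference of 3.60 (limma adjusted p = 0.0459), with all 3 JNKΔhepa livers after ligation above every other liver of the study. In the other 9 livers of this test A2m was not shown to be above background, so the size is one of array signal. The call was lost without each of 10 of the 12 livers, with the animal series as a term (limma adjusted p = 0.169), with the replicate block (0.125) and with another variance prior (0.0544).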

How the results depend on the processing

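No called gene reversed its direction under the alternatives run. Of the results for single genes, 2971 kept their side of the threshold, 55 lost a call and 37 gained one. Most of the 2971 were uncalled both as reported and in the alternative, so they do not measure how stable the calls were. After ligation, Saa3 kept its call in 15 of 15 alternatives, A2m in 14 of 14, Mug2 in 12 of 15 and Crp in 8 of 15. Cp at 52 weeks kept it in 6 of 14, and A2m for the difference between injuries in 7 of 20. At 52 weeks 6 genes rose and 2 fell, and 9 fell with the arrays centred and 4 with another variance prior. The count of higher genes for the difference between the injuries, 1 as reported, was 2 with quantile normalisation and with the mean of probe sets, 3 with array weights, and 0 without dim genes, where A2m itself was not tested, with another variance prior, and with the animal series. At 8 weeks 1 gene rose with 24 arrays in 1 fit. Of the 3 higher and 1 lower gene between livers labelled control after ligation and after DEN, 0 and 0 were kept with the animal series.

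Leaving out 1 liver at a time gave 4 to 10 higher and 2 to 3 lower genes at 52 weeks, 2 to 8 higher and 0 lower after ligation, 0 to 2 higher for the difference between injuries, and 0 to 5 higher and 0 to 1 lower between livers labelled control. After DEN and at 8 weeks it gave 0. Over all alternatives run, and not only those that leave out a liver, the all-gene counts of 150 higher and 105 lower after ligation ranged from 32 to 310 and from 25 to 249. Between livers labelled control they ranged from 10 to 610 and from 5 to 295, and for the difference between injuries from 0 to 35 and from 2 to 33. After DEN they reached 2 higher, and at 8 weeks 19 higher and 38 lower. Beyond what is stated here and in the results, the cause was not tested.

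Whether replicate numbers pair the livers was not settled. The correlation of same-numbered livers' deviations was 0.36, 0.30 and 0.04 for replicates 1, 2 and 3 after DEN. It ran from -0.19 to 0.14 in the other comparisons. With the number as a replicate block, 0 genes were called after DEN and for the difference between injuries, and 1 higher between livers labelled control. Crp after ligation and Cp at 52 weeks missed the threshold with this block (limma adjusted p of 0.0791 and 0.0745).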
